A study of Mus musculus with 8 samples.

Results

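Type I interferons are antiviral cytokines whose receptor signals through the Jak1 and Tyk2 kinases to a DNA-binding complex that holds Stat2 and Irf9. The complex binds interferon-stimulated response elements and switches on interferon-stimulated genes. Many of these genes encode sensors of foreign or unedited RNA, so that detection of RNA and the response to interferon feed each other. N6-methyladenosine (m6A), the mark that Mettl3 deposits on mRNA, is known as one of the features by which cells tell their own RNA from foreign RNA. Here 40 interferon-stimulated and RNA sensing genes were examined in resting mast cells depleted of Mettl3. They were taken as a list of symbols and matched to the Ensembl gene IDs of the count tables, and all 40 were found among 56748 IDs.

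RNA-seq was performed on bone marrow-derived mast cells (BMMCs), which are grown from the marrow of young adult C57BL/6 mice in IL-3, with 4 libraries in each of 2 groups. Mettl3-RNP cells, labelled Mettl3 KO, had been electroporated with Cas9 ribonucleoproteins (RNPs) against Mettl3. Pulsed cells, labelled Mettl3 WT, were mock transfected and received neither Cas9 nor guide RNA. No cells were stimulated. Mettl3-RNP cells were an unselected mixture of edited and unedited cells, and delivery of the RNP itself and loss of Mettl3 cannot be told apart with this control. The series names 4 mice as the source of both groups, so libraries were compared pair by pair by replicate number.

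The study describes more than 1 guide against Mettl3. The guide shown here is the 1 on its list that is not marked for homology-directed repair, since guide RNA was an RNA given to 1 group alone. Which guides entered these libraries is not stated. The guide matches GRCm39 at chr14:52537803-52537822 on the plus strand, in coding sequence of exon 2 of Mettl3, a gene of the minus strand, and the capitals mark the adjacent PAM read from the genome.
crRNA_Mettl3_1: cacgggactatcactacggaAGG

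Mettl3 was lower in Mettl3-RNP than in Pulsed libraries in 4 of 4 pairs, at 8.88 ± 3.04 against 22.0 ± 7.28 CPM (SD, n = 4), where CPM is the count per 1000000 counts of a library. The libraries had 12.3, 9.15, 4.88 and 9.20 CPM in Mettl3-RNP 1 to 4 and 25.9, 24.5, 11.1 and 26.5 CPM in Pulsed 1 to 4, so that Pulsed 3 overlapped the Mettl3-RNP range. The log2 fold change was -1.30 (SE 0.109, adjusted p 0.00543 by edgeR with the replicate number as a block). Without the block none of the tested genes passed, and Mettl3 had an adjusted p of 0.744. Mast cell markers summed to 38425 to 54136 CPM in Mettl3-RNP and 43352 to 61047 CPM in Pulsed libraries. Markers of other cells were lower. Among those listed for basophils, Mcpt8 and Prss34, their granule proteases, averaged 2.22 and 0.914 CPM, whereas Ifitm1 and Cd200r3 averaged 1741 and 629 CPM. Markers of macrophages summed to 158 to 411 and 77.6 to 400 CPM, with 7 of 12 genes below a mean of 1 CPM. Those of dendritic cells reached 9.01 CPM at most, of neutrophils 0.985, of T, NK and B cells 1.96 and of erythroid cells 10.8 CPM. In bulk RNA, fewer cells of a type and less RNA per cell cannot be told apart.

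The promoters of the 40 genes were searched for the interferon-stimulated response element (ISRE) to show which genes carry this element near their start. The ISRE was written as GAAA, any 2 bases and GAAA again and looked for on both strands in the 300 bases from 250 before to 50 after the start of the canonical transcript (GENCODE M39, GRCm39). It was present in 15 of the 40 promoters (37.5%) and in 829 of 21630 promoters of all protein-coding genes (3.83%). Among RNA sensing genes 7 of 12 held it, among antiviral effectors 7 of 16, among regulators 1 of 9 and among antigen processing genes 0 of 3. The following sites are 1 from each of 8 genes whose levels are described below, with 10 bases on either side and the motif in capitals.
Isg15: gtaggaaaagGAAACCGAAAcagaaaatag
Dhx58: ctctagaaatGAAACTGAAAcaaggggagg
Oas3: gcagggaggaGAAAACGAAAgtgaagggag
Eif2ak2: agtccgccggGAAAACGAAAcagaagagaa
Usp18: ggatctagggGAAAACGAAAgcttggcggt
Bst2: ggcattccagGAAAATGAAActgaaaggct
Ifit1: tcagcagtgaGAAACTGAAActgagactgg
Rtp4: aaagaaccggGAAACTGAAActgttctttg

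These sites lie at chr4:156285328-156285357 (minus strand) for Isg15, chr11:100595082-100595111 (plus) for Dhx58, chr5:120915780-120915809 (minus) for Oas3 and chr17:79189964-79189993 (minus) for Eif2ak2. Those of the other genes lie at chr6:121222796-121222825 (plus) for Usp18, chr8:71990227-71990256 (minus) for Bst2, chr19:34618194-34618223 (minus) for Ifit1 and chr16:23428634-23428663 (plus) for Rtp4. The motif began 44 bases before the start in Isg15 and 29 bases after it in Eif2ak2. Isg15 held 3 matches, of which neighbours overlap, and Bst2 held 2 that overlap. The gamma-activated sequence TTCNNNGAA, which reads the same on both strands, was present in 10 of the 40 promoters (25.0%) and in 8.85% of all. In 4 genes both motifs were found, and in Bst2 and Zbp1 matches of the pair overlapped. A match is a run of letters and not evidence of binding.

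In unstimulated mast cells, several transcripts commonly used as signs of an interferon response were scarce in both groups. A low-count filter of about 10 counts in 4 libraries kept 31 of the 40 genes. The other 9 were Ifit1, Ifit3, Ifi44, Mx1, Mx2, Rtp4, Oas2, Tlr3 and Zbp1, with 1 to 59 counts over all 8 libraries, where libraries held 32643260 to 45324826 counts each. Mx1 and Mx2 are dynamin-like GTPases that block viruses, and C57BL/6 mice carry a defective Mx1 allele. Mx1 had 18, 3, 6 and 0 counts in Mettl3-RNP 1 to 4 and 14, 5, 9 and 4 in Pulsed 1 to 4. Mx2 had 2 counts in Pulsed 1, 5 in Pulsed 3 and 0 in the other 6 libraries, and a count of 0 allows up to 3 counts, or 0.0662 to 0.0919 CPM, as a limit for counting error alone.

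Ifit1 binds viral RNA lacking the marks of a host cap, and Ifit3 is a related protein. Ifit1 had 5, 13, 10 and 4 counts in Mettl3-RNP 1 to 4 and 1, 1, 5 and 7 in Pulsed 1 to 4, so that the groups overlapped. Ifit3 had 2 counts each in Mettl3-RNP 2 and Pulsed 2 and 1 in Pulsed 4. It shares 31.7% of its 50-base words with other genes, foremost Ifit3b, so reads counted for it are uncertain. Rtp4, a chaperone of membrane receptors, and Ifi44 had 5 counts and 1 count in all, and Oas2 had 2. Rtp4 shares 25.7% of its 50-base words with Gm45338, so its count is uncertain too. The endosomal receptor Tlr3 had 12 counts and Zbp1, a sensor of left-handed nucleic acid, had 20. Mettl3-RNP 2 held the highest Ifit1 and Zbp1 counts and the 1 count of Ifi44. In the same library, olfactory and vomeronasal receptors, which mast cells are not known to use, summed to 307 CPM, against 49.2 to 174 CPM in the other 7, and the part of this background in these counts was not tested.

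Transcripts of the interferons themselves were at or near 0. Of 21 genes for interferons of type I, II and III, 17 had 0 counts in all 8 libraries, Ifnb1 among them. The remainder were Ifnz with 9 counts, Ifna4 with 4, all in Mettl3-RNP 3, and Ifna11 and Ifng with 1 count each. None was tested.

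Per length of exon, Bst2, the tetherin that holds budding virus at the membrane, had the highest level at 66.9 TPM (transcripts per 1000000, scaled by exon length) on average, with 50.5 to 79.6 TPM over libraries. Psmb8 followed at 54.7 TPM with a range of 45.4 to 65.3, and neighbours in this order overlapped in their ranges. Samhd1, which hydrolyses deoxynucleotides, had 47.6 TPM, Dtx3l 42.6 and Eif2ak2 42.4. Members with an ISRE in the promoter had a median of 0.806 CPM (15 genes) and members without one 16.0 CPM (25 genes). Both sets ran from under 0.01 CPM to over 50 CPM, led by Eif2ak2 and Samhd1.

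**Figure D1:**
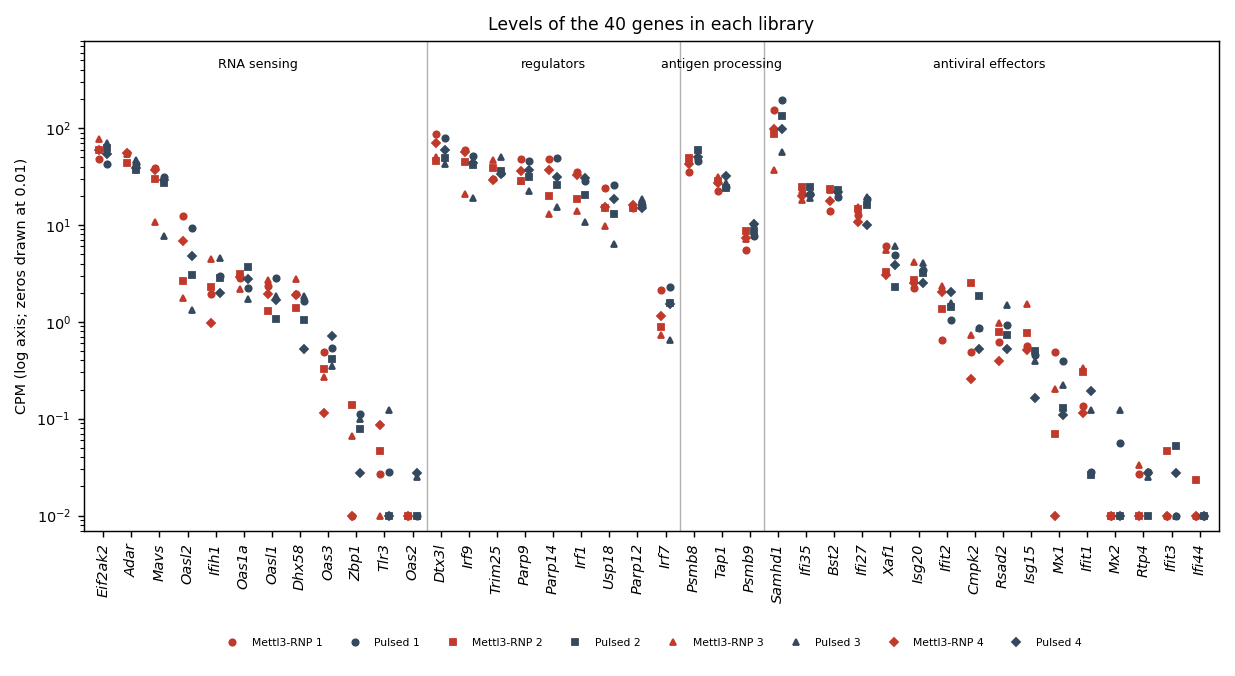
CPM on a log axis of each of the 40 genes in 4 Mettl3-RNP (red) and 4 Pulsed (dark) libraries, with marker shape for replicate number, genes sorted by mean within roles, and zeros drawn at 0.01. Levels run from 197 CPM for Samhd1 in Pulsed 1 to 0, and in most genes the red and dark points overlap.

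The groups were then compared gene by gene within pairs. No member passed an adjusted p of 0.05 in edgeR, where 3.74% of the 14942 tested genes did. The share of tested genes that rose was 2.35%, and the share that fell was 1.39%. With a fold change of at least 1.5 as well, the share of all genes was 2.06% and again no member passed. At an unadjusted p under 0.05 there were 7 of 31 members (22.6%), and 22.5% of all tested genes. Fitted differences lay above 0 for 15 members and below 0 for 16, with a median log2 fold change of -0.02, and the median over all tested genes was -0.0013. By pair the member medians were -0.11, -0.07, 0.13 and -0.0063 for pairs 1 to 4, so that neither direction was held.

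For 26 of the 31 members the 95% interval of the difference lay within a fold change of 2, and for 18 within 1.5. Over all 14942 tested genes the counts were 10896 and 8450. The 5 exceptions to the first were Isg15, Dhx58, Oas3, Rsad2 and Cmpk2, each at a mean below 2 CPM. Other tests run on the same counts called 2 members (DESeq2), 0 (limma-voom) and 9 (removeBatchEffect before limma-trend, the kind of correction the study names). The same tests called 9.70%, 4.30% and 30.5% of all genes, and DESeq2 gave 3 members no adjusted p. The fit after removeBatchEffect does not count the removed replicate terms in its degrees of freedom, so its p-values tend to be too small. In edgeR, Adar alone passed with library size as the only scaling (3.98% of all genes) and with at least 10 counts in every library (7.67%). No member passed with the other estimate of the spread (4.96% of all genes), DESeq2 size factors (3.85%), every gene with a count (2.95%) or no block (0.00%). None passed without replicate 1 (2.18% of all genes), 2 (0.174%), 3 (2.57%) or 4 (2.23%).

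**Figure D2:**
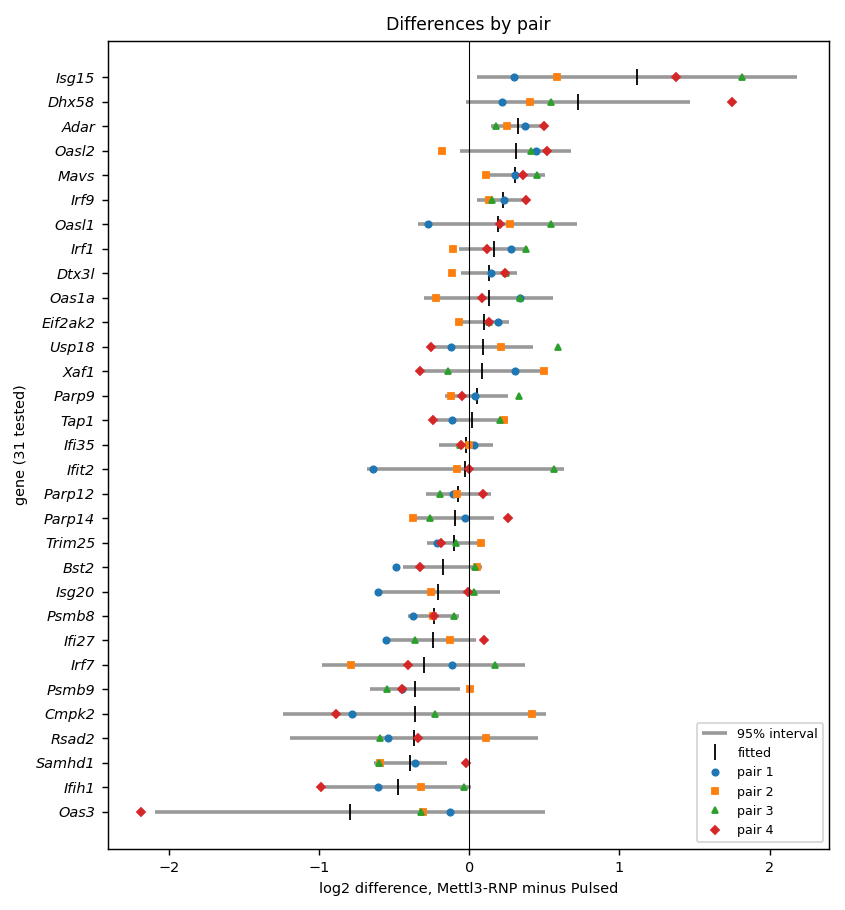
Log2 difference of Mettl3-RNP minus Pulsed for the 31 tested genes in each of 4 pairs (coloured markers), with the fitted value (tick) and its 95% interval (grey bar). Intervals of 26 genes lie within a fold change of 2, and the widest belong to genes below 2 CPM.

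There were 9 members with 1 direction in 4 of 4 pairs (29.0%, and 31.7% of all tested genes). Of these 5 were higher (15.6% of all tested genes were) and 4 lower (16.0%). RNA sensing genes contributed 5 of the 9. Adar, which edits adenosine to inosine in double-stranded RNA and thereby keeps cellular RNA from being sensed, came closest to the threshold. It had 55.4, 43.7, 53.6 and 55.0 CPM in Mettl3-RNP 1 to 4 and 42.9, 36.8, 47.3 and 39.0 CPM in Pulsed 1 to 4. Mettl3-RNP 2 overlapped the Pulsed range, and the other 3 Mettl3-RNP libraries lay above it. The log2 fold change was 0.32 (SE 0.077, adjusted p 0.0625 by edgeR), a fold of 1.25 with a 95% interval of 1.11 to 1.42. Adar passed in 4 of 13 alternative analyses, with an adjusted p of 0.0126 in DESeq2 and of 0.0422 with library size as the only scaling. Adar shares exon bases with Chrnb2 on the opposite strand, and strand settings of the counting are not stated.

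Mavs is the adaptor on mitochondria through which Rigi and Ifih1 signal. It had 38.4, 29.7, 10.7 and 37.4 CPM in Mettl3-RNP 1 to 4 and 31.01, 27.4, 7.77 and 29.2 CPM in Pulsed 1 to 4. Replicate 3 was low in both groups, which overlapped, and within each pair the Mettl3-RNP library was higher (log2 fold change 0.30, SE 0.085, adjusted p 0.0880 by edgeR).

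The RIG-I-like helicases differed in sign. Dhx58, a regulator of the other helicases, had 1.94, 1.40, 2.74 and 1.88 CPM in Mettl3-RNP 1 to 4 and 1.66, 1.04, 1.86 and 0.520 CPM in Pulsed 1 to 4. The low Pulsed 4 library gave pair 4 the widest gap, with a log2 difference of 1.75 against 0.22 to 0.54 in the other pairs. Ifih1 (MDA5), the sensor of long double-stranded RNA, had 1.94, 2.28, 4.48 and 0.968 CPM against 2.98, 2.87, 4.59 and 1.97 CPM. Its level was highest in replicate 3 and lowest in replicate 4 of both groups. The log2 fold changes were 0.73 for Dhx58 (SE 0.322, adjusted p 0.233 by edgeR) and -0.47 for Ifih1 (SE 0.210, adjusted p 0.233). Rigi, which detects short RNA ends, had 30.1 ± 11.2 CPM in Mettl3-RNP and 31.2 ± 11.7 CPM in Pulsed libraries (SD, n = 4; log2 fold change -0.06, adjusted p 0.719 by edgeR).

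Eif2ak2 (PKR), the kinase that stops translation on double-stranded RNA, was the RNA sensor with the highest level, at 48.3, 58.9, 76.5 and 59.4 CPM in Mettl3-RNP 1 to 4. Pulsed libraries had 42.3, 61.7, 70.0 and 54.2 CPM, and replicate 3 was highest in both groups. The log2 fold change was 0.10 (SE 0.071, adjusted p 0.482 by edgeR), with an interval of the fold from 0.954 to 1.20. Among oligoadenylate synthetases, which activate RNase L, Oas3 had 0.484, 0.326, 0.267 and 0.114 CPM against 0.534, 0.417, 0.347 and 0.712 CPM. Only 119 counts in all lay behind it, and pair 4 alone differed by more than 1 on the log2 scale (fitted -0.79, SE 0.562, adjusted p 0.462). Oas1a (log2 fold change 0.13), Oasl1 (0.19) and Oasl2 (0.31) had adjusted p from 0.306 to 0.739, and 15.7% of the 50-base words of Oas1a occur in other genes, foremost Oas1g.

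Of the antiviral effectors, Samhd1 had the most reads, although Bst2 was above it per length of exon. Samhd1 had 153, 88.1, 36.9 and 97.0 CPM in Mettl3-RNP 1 to 4 and 197, 133, 56.1 and 98.6 CPM in Pulsed 1 to 4. In both groups replicate 1 was highest and replicate 3 lowest, and the groups overlapped. The log2 fold change was -0.39 (SE 0.105, adjusted p 0.0775 by edgeR), with pair 4 near 0 at -0.02. DESeq2 gave an adjusted p of 0.00841.

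Isg15, the ubiquitin-like protein that is conjugated to many targets after interferon, was the 1 member whose groups did not overlap, where 3.24% of all tested genes did not. It had 0.565, 0.769, 1.54 and 0.512 CPM in Mettl3-RNP 1 to 4 and 0.449, 0.496, 0.397 and 0.164 CPM in Pulsed 1 to 4. Mettl3-RNP 3 stood highest and Pulsed 4 lowest. The fold change of 2.17 was the largest of the 31, with a wide interval of 1.04 to 4.53 (SE 0.460, adjusted p 0.205 by edgeR). There were 175 counts in all, and the log2 difference by pair ran from 0.30 to 1.82. The transcript overlaps the exons of Gm46878 on the opposite strand.

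The other effectors had fitted log2 fold changes from -0.37 (Rsad2, the radical enzyme viperin) to 0.08 (Xaf1, a partner of the apoptosis inhibitor XIAP). Cmpk2, a nucleotide kinase encoded beside Rsad2, had -0.36, Ifi27 -0.24, the exonuclease Isg20 -0.21, Bst2 -0.18, Ifit2 -0.03 and Ifi35 -0.02. Their adjusted p ran from 0.296 to 0.969 in edgeR. Bst2 had 19.6 ± 4.64 CPM in Mettl3-RNP and 21.7 ± 1.48 CPM in Pulsed libraries (SD, n = 4). The log2 fold change of Cmpk2 was -0.68 without replicate 2 and -0.18 without replicate 4. Cmpk2 was highest in Mettl3-RNP 2, at 2.49 CPM, and in Pulsed 2, at 1.85 CPM.

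Among regulators, Irf9, the DNA-binding subunit of the interferon-activated complex, was higher in 4 of 4 pairs. It had 59.8, 45.2, 20.9 and 56.9 CPM in Mettl3-RNP 1 to 4 and 51.0, 41.3, 18.8 and 43.8 CPM in Pulsed 1 to 4 (log2 fold change 0.22, SE 0.074, adjusted p 0.126 by edgeR). Replicate 3 was low in both groups, which overlapped, and 6.10% of the 50-base words of Irf9 also belong to other genes, foremost its neighbour Rnf31. Trim25, a ubiquitin ligase that acts on Rigi, had 29.6, 38.5, 47.0 and 29.3 CPM against 34.4, 36.4, 50.04 and 33.4 CPM. Replicate 3 was highest in both groups.

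Parp9 and Dtx3l form a complex that ubiquitinates histones, and their genes share a start region and some exon bases on opposite strands. Dtx3l had 86.9, 45.6, 50.7 and 70.5 CPM in Mettl3-RNP 1 to 4 and 78.6, 49.3, 42.9 and 59.8 CPM in Pulsed 1 to 4. Parp9 had 47.6, 28.8, 28.3 and 36.0 CPM against 46.3, 31.3, 22.4 and 37.2 CPM. Both were highest in replicate 1 and both groups overlapped. Parp14, an ADP-ribosyltransferase, had 48.2, 20.1, 12.9 and 37.4 CPM against 49.3, 26.1, 15.5 and 31.2 CPM. The log2 fold changes of Dtx3l, Parp9 and Parp14 were 0.13, 0.05 and -0.10. Parp12 (-0.07), Irf1 (0.16), Irf7 (-0.31), Trim25 (-0.10) and Usp18 (0.09) also missed the threshold, and over all 9 regulators adjusted p ran from 0.126 to 0.802 in edgeR. Usp18, which removes Isg15 from proteins and blocks the interferon receptor, had 16.0 ± 5.94 and 16.0 ± 8.39 CPM (SD, n = 4).

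Of the 3 antigen processing genes, which are known to respond to interferon gamma above all, 2 had fitted differences below 0. Psmb8, a catalytic subunit of the immunoproteasome, had 35.3, 49.7, 47.0 and 42.5 CPM in Mettl3-RNP 1 to 4 and 45.8, 58.85, 50.4 and 50.001 CPM in Pulsed 1 to 4. Each Mettl3-RNP library lay below its pair, but the groups overlapped (log2 fold change -0.24, SE 0.073, adjusted p 0.107 by edgeR). Psmb9, another catalytic subunit, was lower in 3 of 4 pairs (-0.36, SE 0.129, adjusted p 0.150). Tap1, the peptide transporter, had 22.6, 28.4, 31.4 and 27.1 CPM against 24.5, 24.2, 27.3 and 32.0 CPM, with 2 pairs higher and 2 lower (0.02, adjusted p 0.931). Tap1 and Psmb9 share exon bases on opposite strands.

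**Figure D3:**
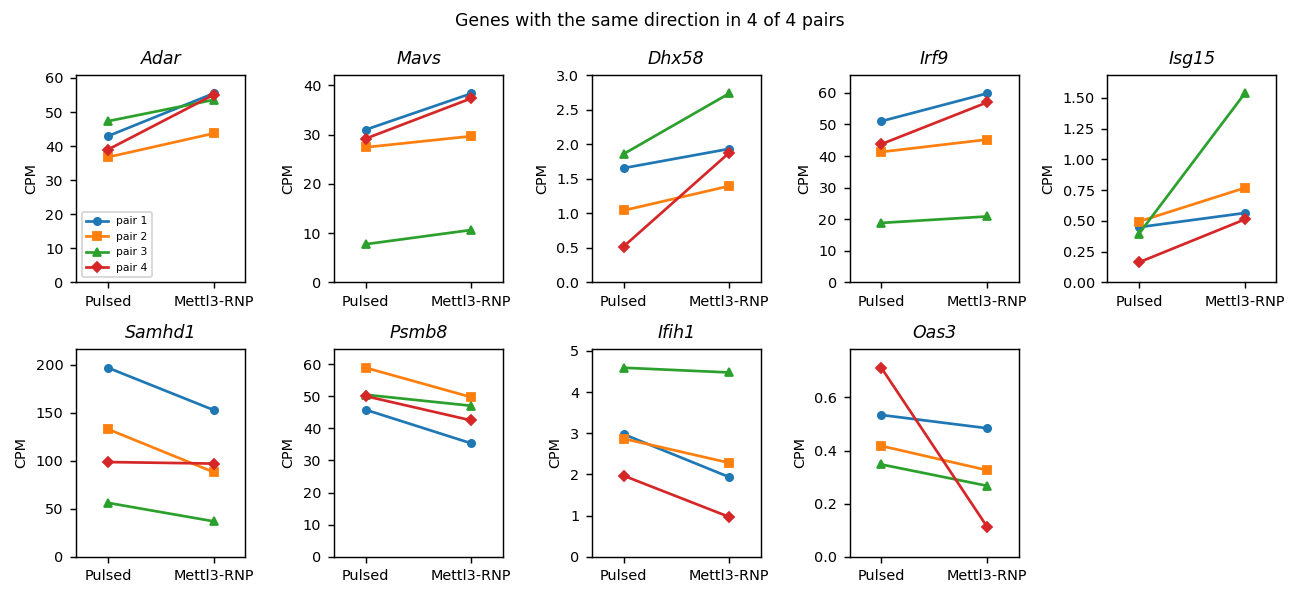
CPM in Pulsed and Mettl3-RNP libraries, joined by pair, for the 9 genes with 1 direction in 4 of 4 pairs, each axis starting at 0. Adar, Mavs, Dhx58, Irf9 and Isg15 slope up and Samhd1, Psmb8, Ifih1 and Oas3 slope down. In all of them except Oas3 the fitted log2 range between replicate numbers exceeds the group difference, in Adar only just.

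The members were also compared between replicate numbers. In a test of the replicate number in the same edgeR fit, 17 of 31 members passed an adjusted p of 0.05 (54.8%), as did 53.9% of all tested genes. The log2 range between replicate numbers had a median of 1.06 over the members and 0.886 over all tested genes. It exceeded the group difference in 30 of 31 members (96.8%) and in 94.4% of all tested genes, but a range over 4 means tends to be wider than the difference of a pair of means. Of the 9 regulators 8 passed, and of the 9 tested RNA sensing genes 4.

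By the mean of both groups, 10 of the 17 members were lowest in replicate 3, and 9 were highest in replicate 1. Among all genes called in this test, 40.3% were lowest in replicate 3 and 32.9% highest in replicate 1, and 42.1% were highest in replicate 3. Oasl2 had the widest range, at 12.5 and 9.21 CPM in Mettl3-RNP 1 and Pulsed 1 and 1.77 and 1.32 CPM in Mettl3-RNP 3 and Pulsed 3 (log2 range 2.81, adjusted p 0.000246 by edgeR). Samhd1 (1.92), Mavs (1.92), Parp14 (1.78), Irf7 (1.67), Usp18 (1.66), Irf9 (1.48), Parp9 (0.89) and Dtx3l (0.82) were likewise highest in replicate 1 and lowest in replicate 3 by that mean. Irf1, the factor induced by interferon gamma, was lowest in replicate 3 at 14.1 and 10.8 CPM, and its other libraries had 18.7 to 34.9 CPM.

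Of 88 tested pathway genes outside the 40, 61 differed between replicate numbers (69.3%, and 53.9% of all tested genes). Of the 61, 36 were lowest and 12 highest in replicate 3. Of all genes called in this test, 40.3% were lowest and 42.1% highest there. Tyk2, Rigi and Sting1, the adaptor of DNA sensing, were lowest in replicate 3 in both groups. In the opposite direction, 5 of the 17 members were highest in replicate 3 by the mean of both groups, namely Eif2ak2, Trim25, Ifih1, Ifi27 and Xaf1. Immediate early genes, which rise within minutes of cell activation, summed to 25468 and 21981 CPM in Mettl3-RNP 3 and Pulsed 3 and to 602 to 6640 CPM in the other libraries, and their part in these levels was not tested. Without replicate 3, 10 of 31 members (32.3%) and 27.2% of all tested genes differed between the remaining numbers.

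**Figure D4:**
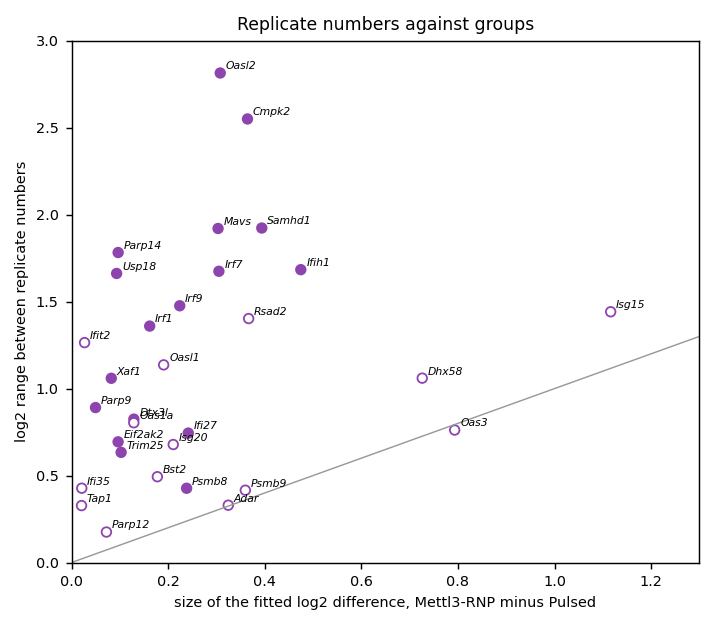
Log2 range between the 4 replicate numbers against the size of the fitted log2 difference between groups for the 31 tested genes, with filled points for the 17 genes that passed the test of replicate number and the line of equal size in grey. All genes except Oas3 lie above the line, Oasl2 is highest at 2.81, and Adar lies almost on the line.

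The wider interferon pathway was taken from a list of 133 further genes, 88 of which were tested. In edgeR 3 of the 88 passed an adjusted p of 0.05 and all 3 were lower (3.74% of all tested genes passed, and 1.39% were lower). DESeq2 called 10 with 6 higher (1449 of all genes with 887 higher), and removeBatchEffect before limma-trend called 32 with 19 higher (4564 with 2269 higher). On every gene with a count, edgeR called 6 of 110 pathway genes with 4 higher (993 of 33650 genes with 638 higher). The median log2 fold change of the 88 was 0.01, with 45 above 0 and 43 below.

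Ly6e, a membrane protein that interferon induces and that alters entry of viruses, had 359, 474, 324 and 428 CPM in Mettl3-RNP 1 to 4 and 846, 830, 627 and 594 CPM in Pulsed 1 to 4. All Mettl3-RNP libraries lay below all Pulsed libraries (log2 fold change -0.87, SE 0.118, adjusted p 0.0165 by edgeR), a fold of 0.548, and its exons overlap Gm62552 on the opposite strand. Lgals3bp, a secreted glycoprotein that binds galectins, had 63.5, 43.8, 66.2 and 46.7 CPM against 94.4, 62.0, 113 and 52.4 CPM. Its groups overlapped, and it was lower in each pair (-0.51, SE 0.100, adjusted p 0.0374). B2m, the light chain of class I MHC, had 528, 509, 534 and 516 CPM against 630, 693, 718 and 626 CPM, with no overlap of the groups (-0.35, SE 0.070, adjusted p 0.0377).

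Without replicate 2 none of the 3 passed, with adjusted p of 0.0709 for Ly6e, 0.138 for Lgals3bp and 0.169 for B2m, but their log2 fold changes were -0.89, -0.51 and -0.33. In that setting 26 genes of all tested passed, against 559 with 4 pairs. Lgals3bp also lost its call without replicate 1 or 3 (0.0808 and 0.0684) and B2m without replicate 1, 3 or 4 (0.0746, 0.0814 and 0.200). B2m alone of the 3 also lost it with every gene with a count (0.128). Without the block their adjusted p were 0.534, 0.999 and 0.999. Basophil markers summed to 1793 to 2413 CPM in Mettl3-RNP and 2241 to 3317 CPM in Pulsed libraries, and their part in these 3 genes was not tested. Most of the sum was Ifitm1, itself an interferon-inducible gene. Of the 5 markers, Ifitm1 (log2 fold change -0.60, adjusted p 0.0471 by edgeR), Il18rap (-0.79, 0.0324), Mcpt8 and Prss34 were lower in 4 of 4 pairs, and Cd200r3 was higher in 4 of 4 (0.25, adjusted p 0.151). The summed mast cell markers were also lower in each pair. Of 10 tested mast cell markers, 6 had fitted differences above 0 and 4 below, with a median log2 fold change of 0.10. Cpa3, a protease of mast cell granules and more than any other part of that sum, was lower (-0.37, adjusted p 0.0328 by edgeR). No other mast cell marker passed in edgeR. Of 5 tested macrophage markers, 3 had fitted differences above 0 and 2 below, with a median of 0.02 and a highest value of 1.63. Adgre1 was lower (-1.13, adjusted p 0.0435 by edgeR), at means of 1.17 and 2.53 CPM. The macrophage sums overlapped between groups. The part of these markers was not tested either.

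The 5 tested receptor genes all had fitted differences above 0, and none passed in edgeR although 4 had an unadjusted p under 0.05 (22.5% of all tested genes did) and 4 were higher in 4 of 4 pairs (15.6%). Ifnar1, a chain of the type I receptor, had 56.2 ± 10.5 CPM in Mettl3-RNP and 47.6 ± 6.67 CPM in Pulsed libraries (SD, n = 4; log2 fold change 0.23, adjusted p 0.0974 by edgeR). Its partner Ifnar2 (0.18, adjusted p 0.214), Ifngr1 of the type II receptor (0.18, 0.254) and Il10rb, shared by the type III receptor (0.47, 0.0634), were also higher in 4 of 4 pairs without passing. Il10rb passed in DESeq2 (adjusted p 0.0136), in edgeR with at least 10 counts in every library (0.0473) and with every gene with a count (0.0367), and after removeBatchEffect (0.00247). Ifnar1, Ifnar2 and Ifngr1 passed after removeBatchEffect alone (adjusted p 0.00244, 0.0167 and 0.00860), a fit whose p-values tend to be too small. Ifngr2 had 9.04 CPM in Mettl3-RNP 2 and at most 3.61 CPM in any other library (0.81, adjusted p 0.201). It passed with every gene with a count (adjusted p 0.0326 by edgeR), and its log2 fold change was 0.46 without replicate 2. Ifnlr1 had 7 counts in all and was not tested.

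Of the 7 receptor signalling genes none passed in edgeR (3.74% of all tested genes did), and 0 had an unadjusted p under 0.05 (22.5%). Of the same 7, 0 held 1 direction in 4 of 4 pairs (31.7% of all tested genes did). Among them Jak1 (0.02), Jak2 (-0.11), Tyk2 (-0.12), Stat2 (0.19), the feedback inhibitor Socs1 (0.09) and the phosphatase Ptpn2 (-0.24) had adjusted p from 0.252 to 0.878. Of 19 tested genes of nucleic acid sensing none passed, with Cgas at -0.02 and Sting1 at 0.09 (adjusted p 0.917 and 0.569), and 7 had an unadjusted p under 0.05 (36.8%, and 22.5% of all tested genes).

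**Figure D5:**
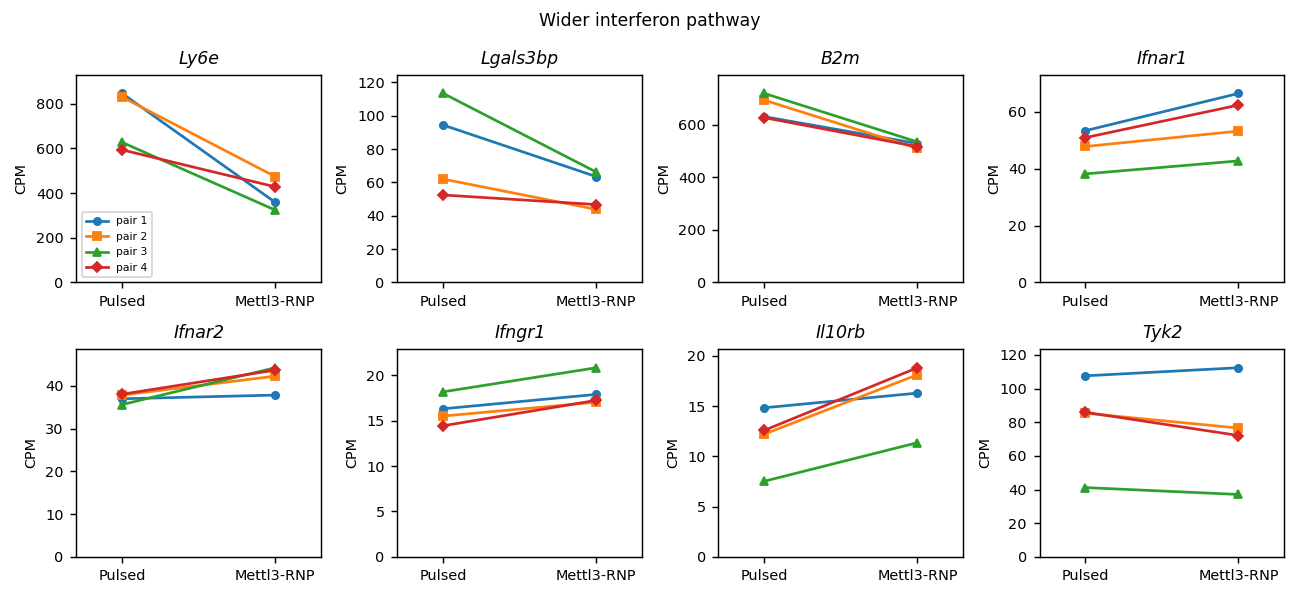
CPM in Pulsed and Mettl3-RNP libraries, joined by pair, for 8 genes of the wider interferon pathway, each axis starting at 0. Ly6e, Lgals3bp and B2m slope down in every pair and passed the test, the receptor chains Ifnar1, Ifnar2, Ifngr1 and Il10rb slope up without passing in the edgeR fit with the block and the standard low-count filter, and Tyk2 is lowest in pair 3.

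Genes with an ISRE in the promoter were divided between the directions. Of the 10 tested members that held the motif, 5 had a fitted difference above 0 and 5 below, with Oas3 and Isg15 at the ends and a median log2 fold change of -0.04. The 21 tested members without it had 10 above and 11 below, from -0.39 to 0.32, with a median of -0.02.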

How the data were processed

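Poly-A RNA of 8 BMMC samples was sequenced by the authors in paired-end runs, aligned with HISAT2 2.2.1 to GRCm39 and counted with featureCounts 2.0.1. The authors deposited unnormalized counts of Ensembl genes, all whole numbers, with no trace of the batch correction that the methods name. Strand and multimapping settings are not given in the sources used here. Names were matched through GENCODE M39 (56017 of 56748 IDs).

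Genes were kept by filterByExpr of edgeR 4.0.16 (R 4.3.3), scaled by TMM and compared by the quasi-likelihood test with the replicate number as a block, since the series names 4 mice for both groups. The link from number to mouse is an inference. The methods describe the 4 samples of a group as separate biological replicates. Deviations of same-numbered libraries correlated at 0.825, 0.489, 0.879 and 0.765, and others at 0.183 or less, over 11984 genes of at least 1 CPM. P-values were adjusted by Benjamini-Hochberg over all 14942 genes at a threshold of 0.05. Standard errors and 95% intervals came from the test statistic, and 2 was the prior count of log2 CPM. TPM used the union of exons. Total counts were 32643260 to 45324826 per library, and the counts of any pair of libraries in a group were further apart than sampling noise allows (lowest chi-square ratio to its degrees of freedom 52.6).

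The members and all gene lists were chosen with earlier results of these data known. All 40 members were named, with values in every library for those with 1 direction in 4 of 4 pairs, the 10 of highest mean CPM and the 5 largest fold changes. Pathway genes were named when past the threshold, or as ligands, receptors, signalling genes, Rigi, Cgas or Sting1, and others where a count needed them. Alternatives used DESeq2 1.42.0, limma 3.58.1, other scalings and filters, no block, and each replicate left out. Shared sequence was the percentage of 50-base words of a gene's transcripts found in transcripts of other genes. Values of 1 signalling gene are not reported here.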

Additional observations from a re-analysis of the deposited data

Results flagged for a closer look

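In groups of 4 libraries, a value was taken as set apart when its gap to the nearest library, relative to the group's range, passed Dixon's 95% limit. Of 100 groups from 50 genes, 4 were set apart, where about 5 are expected by chance. Adar was low in Mettl3-RNP 2 at 43.7 CPM, next to 53.6 CPM. Mavs was low in Pulsed 3 at 7.77 CPM, next to 27.4 CPM. Ifngr2 was high in Pulsed 2 at 2.84 CPM, next to 1.51 CPM. Mettl3 was low in Pulsed 3 at 11.1 CPM, next to 24.5 CPM.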

How the results depend on the processing

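No member passed in the reported fit, nor with no replicate block, limma-voom, DESeq2 size factors, the other estimate of the spread in edgeR, every gene with a count, or any replicate left out. The count was 2 in DESeq2 (9.70% of all genes passed) and 9 after removeBatchEffect (30.5%), whose p-values tend to be too small. Of these 9, 2 were also past a fold change of 1.5, or 6.45% of tested members, and 6.51% of all genes were. The count was 1 with library size only (3.98% of all genes) and 1 with at least 10 counts in every library (7.67%), Adar in both. Pathway genes past the threshold (3 of 88, and 3.74% of all genes) became 0 with no replicate block (0.00% of all genes). In DESeq2 they were 10 with 6 higher (9.70% of all genes passed), and after removeBatchEffect 32 with 19 higher (30.5%). With every gene with a count they were 6 of 110 with 4 higher (2.95% of all genes passed). With at least 10 counts in every library they were 6 of 84 with 2 higher (7.67%). They ranged from 0 to 3 with a replicate left out (0.174% to 2.57%). Members that differed between replicate numbers (17 of 31) ranged from 10 to 15 of 31 with a replicate left out, where 27.2% to 53.1% of all genes did. Under other settings they ranged from 14 of 40 (35.0%, and 22.8% of all genes) with every gene with a count to 19 of 28 (67.9%, and 65.4%) with at least 10 counts in every library. With no replicate block Mettl3 had a log2 fold change of -1.31 and an adjusted p of 0.744, and no gene of all tested passed. Of 400 recomputed member values 387 kept their side of the threshold, 13 newly passed, and the sign of the fitted value changed in 12, none of which passed, in 6 genes (Ifit2, Tap1, Xaf1, Ifi35, Parp9 and Usp18). The causes were not tested. For 5 members under 2 CPM the interval reached beyond a fold change of 2.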
